A study of Mus musculus with 9 samples.

Results

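The 10 mature miRNAs described here are known from white blood cells: mmu-miR-150-5p, mmu-miR-150-3p, mmu-miR-342-3p and mmu-miR-342-5p for the lymphoid lineages, mmu-miR-142a-3p and mmu-miR-142a-5p for leukocytes of all kinds, and mmu-miR-223-3p, mmu-miR-146a-5p, mmu-miR-146b-5p and mmu-miR-155-5p for myeloid cells and inflammation. They are 10 of the 1915 miRNAs counted, and 8 of them passed the expression minimum of more than 32 counts in at least 1 library, as did 304 miRNAs in all. They were selected on their known cell types and also on these data, since miR-150-5p had been noted as lower in each LLC library and miR-223-3p, miR-146a-5p and miR-146b-5p are on the list of changed miRNAs that the study drew from the same mice. Differences of these miRNAs between the LLC and control groups are therefore given as descriptions, with standard errors but without a p-value for the single miRNA, and calls are given only as counts beside the share over all miRNAs.

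The libraries were made from whole tibialis anterior (TA) muscle, a fast-twitch muscle of the lower leg, of male mice. The 4 control mice (C1 to C4) received PBS in both flanks, and the 5 LLC mice (L1, L2, L3, L5 and L6) received 750000 Lewis Lung Carcinoma cells, a mouse lung tumor line, in each flank 22 days before collection, when they had cachexia. The labels give strain C57BL/6J and an age of 10 weeks at injection for all 9 mice, while the design text of the series gives C57BL/10 and 8 weeks. For the day, the sample records give 0 for the control mice and 22 for the LLC mice. The study's methods instead have both groups examined 22 days after the inoculation. All mice were otherwise untreated, the tumor was a subcutaneous graft of 1 cell line, and each library came from 1 mouse.

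A miRNA is cut from a hairpin precursor as a pair of arms, 5p and 3p, of which usually one is loaded into the silencing complex and pairs with target mRNAs through its seed, bases 2 to 8. The miR-142 gene is active across blood cell lineages, miR-150 is abundant in mature B and T lymphocytes and represses the transcription factor Myb, and miR-342 lies in an intron of Evl and is carried by lymphocytes among other cells. The miR-223 gene is a hallmark of granulocytes and their precursors and is also found in platelets, miR-155 rises in activated lymphocytes and macrophages, and the miR-146 genes are induced by NF-κB and dampen the signaling of Toll-like receptors through Irak1 and Traf6.

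The mature sequences below were taken from RefSeq (GRCm38.p6), which matched 9 of the 10 miRNAs. They are shown because they decide which miRNAs can act alike and which can share reads. The capitals mark the seed.

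miR-150-3p: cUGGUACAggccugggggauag
miR-342-3p: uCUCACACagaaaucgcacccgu
miR-342-5p: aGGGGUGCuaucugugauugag
miR-142a-3p: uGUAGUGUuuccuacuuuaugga
miR-142a-5p: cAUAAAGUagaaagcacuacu
miR-223-3p: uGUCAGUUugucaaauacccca
miR-146a-5p: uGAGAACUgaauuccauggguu
miR-146b-5p: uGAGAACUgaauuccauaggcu
miR-155-5p: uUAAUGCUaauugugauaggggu

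Among these 9 sequences only miR-146a-5p and miR-146b-5p shared a seed, and none of the seeds occurred in another mature mouse miRNA of the RefSeq table. The miR-146 pair differs at 2 of 22 bases, G18A and U21C (the base of miR-146a-5p first, positions counted from the 5′ end). Both differences lie behind the seed region in which the mapping allowed no mismatch, so that a read of one could also be kept for the other, and the number of reads counted for both is unknown. The annotation (GENCODE M21, GRCm38) places Mir150 on chromosome 7 outside other genes, Mir342 on chromosome 12 from 108658620 to 108658718 in an intron of Evl, and Mir142 on chromosome 11 from 87756864 to 87756927 in an intron of the noncoding Mir142hg and opposite Mir142b. Mir223 lies on chromosome X from 96242817 to 96242926 within the noncoding F630028O10Rik, over an exon, and Mir155 on chromosome 16 from 84714140 to 84714204 over an exon of Mir155hg. Mir146, the source of miR-146a, lies on chromosome 11 from 43374397 to 43374461 outside other genes, and Mir146b on chromosome 19 from 46342762 to 46342870 in an intron of Mfsd13a.

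Total counts ranged from 4992339 to 6548379 in the control libraries and from 6216566 to 7833161 in the LLC libraries. Values are CPM, counts scaled to the library total and by TMM factors, which correct for differences in composition, and these factors ran from 0.953 to 1.15 in the control libraries and from 0.762 (L5) to 1.11 in the LLC libraries. The muscle label was checked against 6 muscle miRNAs, of which 5 were expressed. The most abundant, miR-133a-3p, had 89338 to 186111 counts per library, whereas miR-1a-3p had 62 to 171 counts and miR-206-3p 0 to 3 counts per library. By mean CPM, miR-133a-3p and miR-133b-3p ranked 15 and 19 among the expressed miRNAs, and miR-1a-3p ranked 190. The check of the label thus rests on the miR-133 miRNAs, and the cause of the low miR-1a-3p was not tested.

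Over the 9 libraries miR-150-5p was the most abundant of the 10 miRNAs, with a mean of 428 CPM and 1885 to 3874 counts per library. It was followed by miR-142a-5p (179 CPM), miR-342-3p (110 CPM), miR-155-5p (57.1 CPM), miR-223-3p (28.1 CPM), miR-142a-3p (20.0 CPM), miR-146a-5p (8.11 CPM) and miR-146b-5p (6.40 CPM). These levels compare reads of molecules of nearly the same length, 21 to 23 bases, without a correction for how well each is ligated. The levels within a library were not used to choose the miRNAs, and each pair of neighbours in the order was compared over the 9 libraries. Of the 9 pairs, 8 differed in a 2-sided exact sign-flip permutation test with Benjamini-Hochberg adjustment. The exception was the lowest pair, miR-342-5p and miR-150-3p (adjusted p = 0.0820, exact permutation test). The weakest of the 8 was miR-142a-5p over miR-342-3p, which held in 7 of 9 libraries with a mean log2 difference of 0.81 ± 0.81 (SD; adjusted p = 0.0308, exact permutation test). For miR-150-5p over miR-142a-5p the mean log2 difference was 1.26 ± 0.31 in 9 of 9 libraries (adjusted p = 0.00703, exact permutation test, for which the unadjusted p of 0.00391 is the smallest possible). As a share of the summed CPM of the 10 miRNAs, miR-150-5p held 56.9 ± 2.99% in the control group (n = 4) and 46.2 ± 2.69% in the LLC group (n = 5).

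In each hairpin 1 arm prevailed. The minor arms miR-150-3p and miR-342-5p did not reach the expression minimum, with 1 to 7 counts per library each and 25 and 37 counts in all libraries together, against 25284 counts of miR-150-5p and 6085 counts of miR-342-3p. Their CPM of 0.422 and 0.639 lie close to the level of 3 counts, 0.383 to 0.601 CPM before TMM scaling, so that a change between groups was not detectable at this depth. The intervals of such counts would cover counting error only. The other arms of the myeloid hairpins were as rare, at 0 to 5 counts per library for miR-223-5p, 0 to 3 for miR-146b-3p, 0 to 1 for miR-155-3p and 0 in each library for miR-146a-3p. Only the miR-142a hairpin gave both arms above the minimum, with 10.3 ± 1.90 counts of the 5p arm for each count of the 3p arm in the control group (n = 4) and 8.34 ± 1.14 in the LLC group (n = 5). The 3p arm lay below the 5p arm in all 9 libraries. Like the levels, these comparisons of arms carry no correction for how well each arm is ligated.

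**Figure D1:**
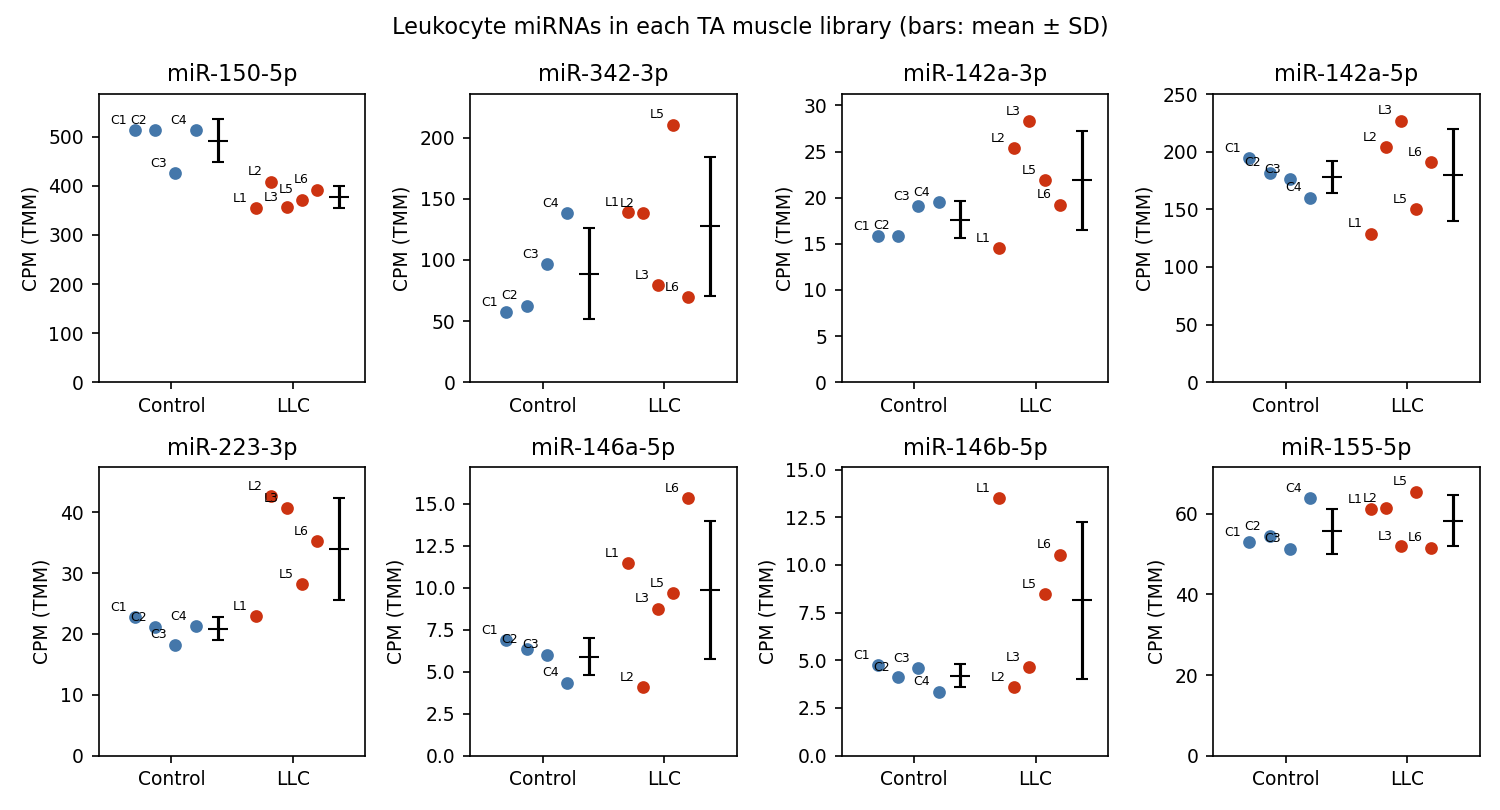
Level of the 8 expressed leukocyte miRNAs in each TA muscle library, in CPM after TMM scaling on a linear axis from 0 (blue points, control mice C1 to C4; red points, LLC mice L1 to L6 without L4; black bars, mean ± SD). The groups do not overlap for miR-150-5p, where the LLC mice lie at 355 to 409 CPM below the control mice, nor for miR-223-3p, where they lie at 23.0 to 42.7 CPM above them.

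The 2 lymphoid miRNAs that passed the minimum lay on opposite sides. The level of miR-150-5p was 514, 513, 426 and 514 CPM in C1 to C4, and 355, 409, 357, 372 and 392 CPM in L1, L2, L3, L5 and L6. All LLC mice thus lay below all control mice, with a gap from 409 CPM in L2 to 426 CPM in C3, which lay well under the other 3 control mice. The means were 492 ± 43.8 CPM (SD, n = 4) and 377 ± 23.1 CPM (SD, n = 5), a log2-fold change of -0.38 (standard error 0.105) or 1.30-fold less in the LLC group. This separation depended on the scaling. Divided by library totals alone, C3 had 406 CPM and L6 437 CPM, so that the groups overlapped, and the log2-fold change was -0.53, while the median over all 304 miRNAs moved from -0.02 to -0.17. As in any whole tissue, fewer cells of a type and less RNA per cell cannot be told apart.

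The other lymphoid miRNA, miR-342-3p, had the widest relative spread of the 8 in the control group. It had 57.6, 62.5, 96.3 and 138 CPM in C1 to C4, and 139, 138, 79.4, 211 and 69.5 CPM in the LLC mice in the order above. L5 was the highest of all mice, C4 was level with L1 and L2, and the groups overlapped. The means were 88.7 ± 37.4 CPM (SD, n = 4) and 127 ± 56.6 CPM (SD, n = 5), with a log2-fold change of 0.52 (standard error 0.306) that ranged from 0.27 without L5 to 0.84 without C4. The difference was no larger than the spread between mice.

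The 2 arms of miR-142a, the miRNA that leukocytes of all lineages share, differed little between the groups. For miR-142a-5p the control mice had 195, 182, 176 and 160 CPM and the LLC mice 129, 204, 227, 150 and 191 CPM. L1 and L5 lay below all control mice and L2 and L3 above them, so that the LLC group was wider (178 ± 14.3 CPM, n = 4, and 180 ± 40.0 CPM, n = 5), at a log2-fold change of 0.02 (standard error 0.153) whose sign was negative in 5 of 15 processing alternatives. For miR-142a-3p the values were 15.8, 15.9, 19.1 and 19.6 CPM against 14.5, 25.4, 28.3, 21.9 and 19.3 CPM, which gave a log2-fold change of 0.32 with a standard error of 0.190. In 3 of the 5 LLC mice (L2, L3 and L5) it was above all control mice and in L1 below them.

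Among the myeloid and inflammatory miRNAs, miR-223-3p separated the groups. It had 22.8, 21.1, 18.2 and 21.3 CPM in C1 to C4 and 23.0, 42.7, 40.6, 28.2 and 35.2 CPM in L1, L2, L3, L5 and L6. L2 and L3 had the most, and L1 lay only just above C1. The means were 20.8 ± 1.89 CPM (SD, n = 4) and 33.9 ± 8.31 CPM (SD, n = 5), 1.63-fold more in the LLC group with a log2-fold change of 0.70 (standard error 0.183) and 103 to 307 counts per library. With library totals alone the groups overlapped, since L1 had 20.1 CPM and L5 21.5 CPM, below the 25.95 CPM of C1.

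Both miR-146 arms were rare, with 22 to 134 counts of miR-146a-5p and 17 to 92 counts of miR-146b-5p per library. For miR-146a-5p the control mice had 6.91, 6.36, 6.02 and 4.35 CPM and the LLC mice 11.5, 4.07, 8.77, 9.67 and 15.4 CPM. For miR-146b-5p they had 4.74, 4.11, 4.60 and 3.36 CPM and 13.5, 3.58, 4.65, 8.49 and 10.5 CPM. L1, L5 and L6 exceeded all control mice for both, while L2, the mouse with the most miR-223-3p, lay within or below the control range for both. The log2-fold changes were 0.74 (standard error 0.300) and 0.94 (standard error 0.341), falling to 0.26 and 0.53 when the replicate number was blocked. That blocked estimate compares only C1 to C3 with L1 to L3, since the numbers of C4, L5 and L6 each occur in 1 group. It thus leaves out L5 and L6 and is not an adjustment for a known batch.

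The values of miR-155-5p were similar in both groups, with 52.9, 54.4, 51.4 and 63.8 CPM in the control mice and 61.1, 61.4, 51.9, 65.5 and 51.6 CPM in the LLC mice. Its log2-fold change was 0.07 (standard error 0.130), turning to -0.09 with library totals alone, and its spread was of similar size in both groups (10.1% and 10.7% of the mean). Within the control group C4 had the most of both miR-155-5p and miR-342-3p, and within the LLC group L5 did.

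**Figure D2:**
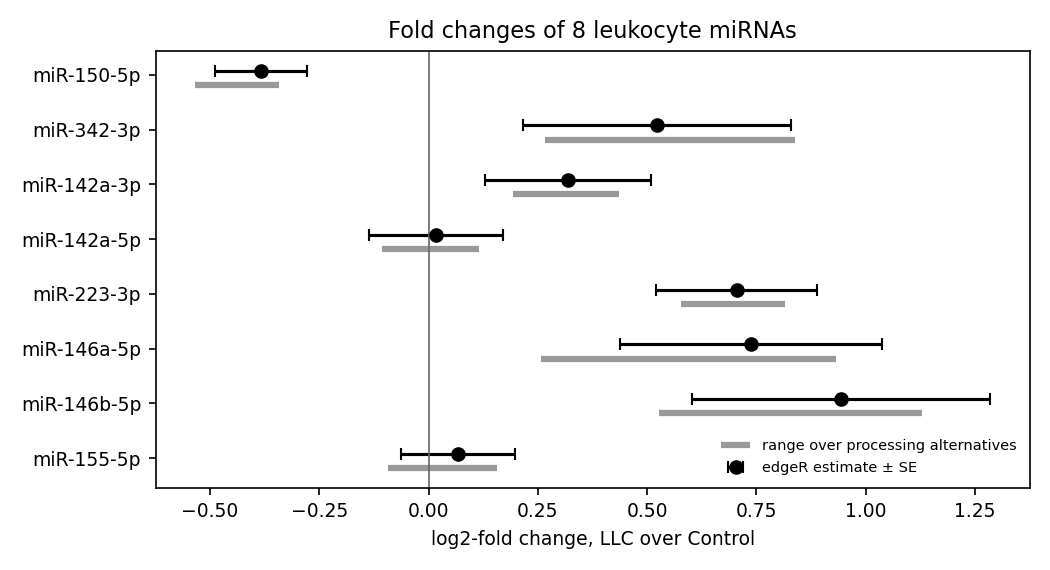
Log2-fold change of the 8 expressed leukocyte miRNAs in the LLC over the control group (black points, edgeR estimate with its standard error; grey lines, lowest to highest estimate over the main setting and 15 processing alternatives). The estimates run from -0.38 for miR-150-5p to 0.94 for miR-146b-5p, and the grey lines cross 0 for miR-142a-5p and miR-155-5p.

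Across all 304 expressed miRNAs, the quasi-likelihood test of edgeR called 0 of the 8 leukocyte miRNAs and 0 of all 304 (0%), a call being a Benjamini-Hochberg adjusted p up to 0.05 together with a change of 1.5-fold or more. At an unadjusted p up to 0.05 it found 4 of the 8 and 50 (16.4%) of the 304. DESeq2's Wald test called 1 of 8 beside 2.3% of the 304, and edgeR without the expression minimum called 3 of 10 beside 2.36% of the 932 miRNAs with a count. A fitted fold change of at least 1.5 upward was found for 3 of the 8 (miR-223-3p, miR-146a-5p and miR-146b-5p), beside 4.28% of all, and downward for 0 of the 8, beside 3.95%. The groups did not overlap for 1 of 8 miRNAs lower in the LLC group (miR-150-5p, beside 4.28% of all) and for 1 of 8 higher (miR-223-3p, beside 1.64%). Of the 8, 7 had a positive fold change and the median log2-fold change was 0.42, against 141 of 304 and a median of -0.02 over all expressed miRNAs. Nothing is read from these counts, because the miRNAs were chosen with this contrast in view.

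Ratios of counts within a library do not depend on the scaling between libraries. The ratio of miR-223-3p to miR-150-5p was 0.0442, 0.0410, 0.0428 and 0.0415 in C1 to C4, and 0.0647, 0.104, 0.114, 0.0759 and 0.0897 in L1, L2, L3, L5 and L6. The control mice were almost identical, with 0.0424 ± 0.00143 (SD, n = 4), and each LLC mouse was higher, with 0.0897 ± 0.0201 (SD, n = 5). On the log2 scale the groups differed by 1.05, or 2.07-fold. This is again a description, since the ratio combines the values noted when the miRNAs were chosen.

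Set against miR-142a-5p, the miRNA of all leukocytes, miR-223-3p gave 0.117, 0.116, 0.104 and 0.133 in the control mice and 0.178, 0.209, 0.179, 0.188 and 0.184 in the LLC mice. Every LLC mouse was above every control mouse, and the spread was narrow in both groups (0.117 ± 0.0121, n = 4, and 0.188 ± 0.0128, n = 5). How many other expressed miRNAs separate the groups when set against miR-142a-5p was not counted. The ratio of miR-150-5p to miR-142a-5p was 2.64, 2.82, 2.42 and 3.21 in the control mice and 2.75, 2.01, 1.57, 2.48 and 2.05 in the LLC mice. Here the groups overlapped, with 3 of the 5 LLC mice below all control mice and L1 and L5 among them. For miR-342-3p to miR-150-5p the ratio was 0.182 ± 0.0778 (n = 4) and 0.339 ± 0.153 (n = 5), with 3 LLC mice above all control mice. The ratio of miR-155-5p to miR-142a-5p was 0.315 ± 0.0565 and 0.342 ± 0.107. That of miR-146b-5p to miR-146a-5p was 0.717 ± 0.0616 in the control group and ran from 0.530 (L3) to 1.18 (L1) in the LLC group.

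**Figure D3:**
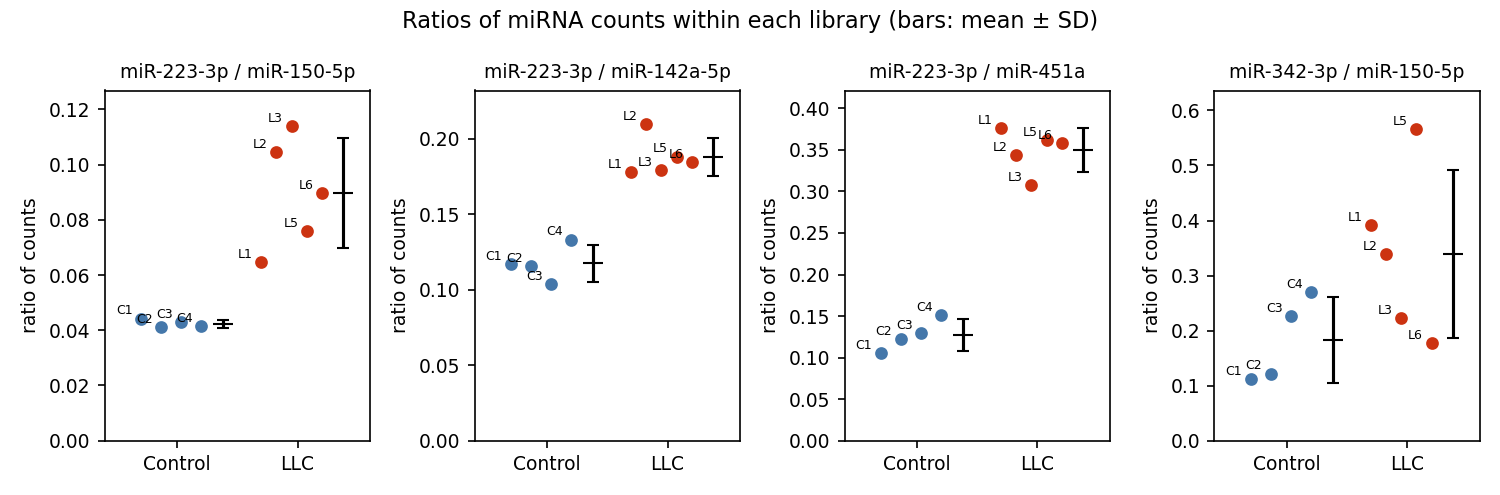
Ratio of the counts of 2 miRNAs within each library on linear axes from 0, for miR-223-3p over miR-150-5p, miR-142a-5p and miR-451a and for miR-342-3p over miR-150-5p (blue points, control mice; red points, LLC mice; black bars, mean ± SD). The 5 LLC mice lie above the 4 control mice in each of the miR-223-3p ratios, most widely for miR-451a, and overlap with them for miR-342-3p over miR-150-5p.

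Markers of other cells in the tissue were compared in the same way. The erythroid miRNAs miR-451a, miR-144-3p and miR-144-5p, which red cells carry in bulk, were lower in the LLC group in 3 of 3, with a summed level of 215 to 325 CPM in the control mice and 92.4 to 220 CPM in the LLC mice and no marker at 0. Their log2-fold changes were -0.76 (standard error 0.204), -0.73 (standard error 0.262) and -0.83 (standard error 0.252), all larger in size than the -0.38 of miR-150-5p. The groups did not overlap for miR-451a and miR-144-5p and overlapped for miR-144-3p, and with library totals alone they overlapped for all 3. Among all 304 expressed miRNAs, 4.28% were lower without overlap after TMM scaling. The endothelial arms of miR-126a were lower in 2 of 2 (26211 to 33929 and 24162 to 29972 CPM), and the fibroblast miRNAs miR-199a-3p, miR-199a-5p and miR-214-3p in 2 of 3 (1939 to 2371 and 1759 to 3300 CPM). The muscle miRNAs were lower in 5 of 5 expressed (21902 to 30875 and 20862 to 25266 CPM). Of all 304 expressed miRNAs, 163 were lower. The log2-fold changes ran from -0.31 to -0.09 (endothelial), -0.33 to 0.08 (fibroblast) and -0.53 to -0.12 (muscle). Those of miR-126a-5p (-0.09), miR-133a-3p (-0.12) and miR-133b-3p (-0.14) were about the size of their standard errors or smaller (0.135, 0.137 and 0.133). None of the markers passed the adjusted threshold in edgeR's test. The part of the blood content in the differences of the leukocyte miRNAs was not tested.

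Some leukocyte miRNAs were also set against the erythroid marker miR-451a within each library. How much of their reads came with the blood was not tested. The ratio of miR-223-3p to miR-451a was 0.106, 0.122, 0.129 and 0.151 in C1 to C4 and 0.377, 0.343, 0.308, 0.362 and 0.359 in L1, L2, L3, L5 and L6. The LLC mice formed a narrow band of 0.350 ± 0.0262 (SD, n = 5) well above the control mice at 0.127 ± 0.0189 (SD, n = 4), a 2.76-fold difference. The ratio of miR-142a-5p to miR-451a likewise did not overlap, with 0.905 to 1.25 in the control mice and 1.64 to 2.12 in the LLC mice. By itself miR-142a-5p had a log2-fold change of 0.02. How many other expressed miRNAs separate the groups when set against miR-451a was not counted. For miR-150-5p to miR-451a the groups overlapped, at 2.39 to 3.65 in the control and 2.71 to 5.82 in the LLC mice. Since miR-451a itself was lower in the LLC group, these ratios hold both differences.

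Within the groups, the mice with more miR-451a tended to have more miR-223-3p, though not in strict order. After each group's mean of log2 CPM was subtracted, which removes the difference between groups, Pearson's r over the 9 mice was 0.93 (exact permutation within groups, p = 0.00278, adjusted p = 0.0139 over 5 relations) and Spearman's rho 0.90 (p = 0.0174, adjusted p = 0.0868, exact permutation), which did not pass after adjustment. Without the 2 mice farthest from the median of miR-223-3p, L1 and L2, r was 0.87 (n = 7, p = 0.0556, adjusted p = 0.278, exact permutation), which no longer passed with fewer mice and permutations. Between the groups, miR-223-3p was higher and miR-451a lower in the LLC mice. Each group alone, with 4 or 5 mice, is too small for a correlation. The points share library, depth and scaling, and with library totals alone r was 0.97 (adjusted p = 0.00174, exact permutation).

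The other 4 relations did not pass the adjusted threshold. They were miR-223-3p with miR-142a-3p (r = 0.71, p = 0.108; rho = 0.53, p = 0.274; exact permutation), miR-150-5p with miR-451a (r = 0.43, p = 0.228; rho = 0.43, p = 0.271; exact permutation), miR-150-5p with miR-342-3p (r = -0.14, p = 0.749; rho = -0.02, p = 0.984; exact permutation) and miR-150-5p with miR-142a-3p (r = 0.01, p = 0.978; rho = 0.15, p = 0.741; exact permutation). Their adjusted p ran from 0.270 to 0.978 for r and from 0.457 to 0.984 for rho. The more abundant arm miR-142a-5p was not among the 5 relations, and as a description without a test its r was 0.91 with miR-223-3p and 0.24 with miR-150-5p over the same 9 mice. Thus the r of miR-223-3p with this leukocyte miRNA was about as high as that with the erythroid miR-451a. Without the 2 farthest mice the r of the 4 tested relations were 0.21, 0.04, 0.07 and -0.31. The 2 lymphoid miRNAs miR-150-5p and miR-342-3p thus had no relation detectable with 9 mice.

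**Figure D4:**
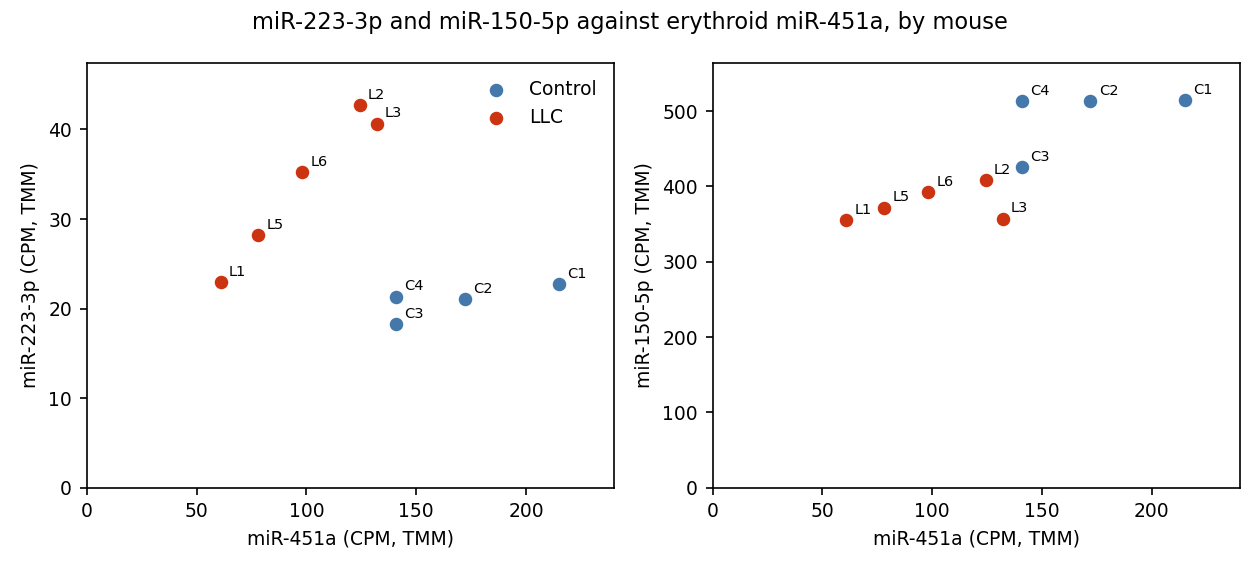
Level of miR-223-3p (left) and miR-150-5p (right) against that of the erythroid miR-451a in each mouse, in CPM after TMM scaling on linear axes from 0 (blue, control mice; red, LLC mice). The LLC mice lie on a rising line from L1 (61.0 CPM of miR-451a and 23.0 CPM of miR-223-3p) to L2 and L3, while the control mice have more miR-451a, 141 to 215 CPM, and less miR-223-3p.

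By the same measure, the miRNAs whose pattern was most like that of miR-223-3p among the other 303 expressed were miR-221-3p (r = 0.96), miR-484 (r = 0.95) and miR-26a-5p (r = 0.94), over 9 libraries and after removal of the group means. Between the groups their log2-fold changes were 0.05, -0.31 and -0.21, against 0.70 for miR-223-3p. The r of each of these 3 was above the 0.93 of miR-451a, so an r of that size was not particular to the erythroid marker. The nearest 3 of miR-150-5p were miR-362-3p (r = 0.83), miR-1964-3p (r = 0.81) and miR-127-5p (r = 0.81). With library totals alone, miR-221-3p (r = 0.98) and miR-484 (r = 0.98) were again among the nearest 3 of miR-223-3p, while the nearest 3 of miR-150-5p were others, led by miR-136-5p (r = 0.96). These correlations are descriptions picked as the highest of many.

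Of 12 further miRNAs known from lymphoid or myeloid cells, 9 were expressed and 0 passed the adjusted threshold, as 0 of all 304 did. Their log2-fold changes lay between -0.18 and 0.20, with 3 higher and 6 lower in the LLC group and a median of -0.04. The highest was that of miR-21a-5p, an abundant miRNA of inflamed and injured tissue, with 1923 ± 148 CPM (n = 4) and 2207 ± 191 CPM (n = 5). In 4 of the 5 LLC mice miR-21a-5p lay above all control mice. Its groups overlapped with TMM scaling and with library totals alone, but not with RLE factors, another scaling between libraries. The macrophage miRNA miR-511-3p, from an intron of the mannose receptor gene, had 5.19 ± 0.894 and 5.57 ± 0.889 CPM at a log2-fold change of 0.12. For miR-181a-5p, which tunes T cell receptor signaling but is also abundant in muscle, the values were 24723 ± 3385 and 25351 ± 3520 CPM, and for the Toll-like receptor response miRNA miR-147-3p 0 to 5 counts per library were found. The 12 summed to 28498 to 37161 CPM in the control mice, against 799 to 926 CPM for the 10 leukocyte miRNAs. Which cells their reads came from was not tested.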

How the data were processed

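Small RNA libraries (TruSeq kit, single-end reads) came from 4 control and 5 LLC mice. Reads were mapped by the authors to miRBase version 21 with Bowtie, which allowed no mismatch in the first bases and reported every alignment of the best class. The deposited values are raw counts per mature miRNA, 1 table for each library. The aligner version is not given in the sources used here. Sample titles gave the groups and numbers. The study left out the miRNA data of a sixth LLC mouse, L4, for failing its quality filters, and L4 was not analysed here.

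The quasi-likelihood test of edgeR 4.0.16 (R 4.3.3) was run on miRNAs exceeding 32 counts in any library, with TMM factors from these miRNAs and whole library totals. Calls required a Benjamini-Hochberg adjusted p up to 0.05 and a change of 1.5-fold or more. Standard errors are the log2-fold change divided by the root of the test's F statistic. Correlations used log2 CPM with a prior count of 2 and all 2880 permutations within groups. Levels of neighbours were compared as log2(CPM + 0.05), ratios as log2 with 0.5 added to each count. Alternatives were RLE factors, library totals, DESeq2 1.42.0 without independent filtering, other filters, a replicate block and leaving out each library. The edgeR step was tested on simulated data. No 2 libraries of a group agreed within sampling noise (lowest chi-square per degree of freedom 124). Reads carry no molecular identifiers, and their number covers counting error only. Loci are from GENCODE M21 on GRCm38. Figures were drawn with matplotlib 3.10.9.

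The 10 miRNAs, the lists of other miRNAs and the tests were chosen with earlier results of these data known. Named were all 10, the other arms of their hairpins, listed miRNAs past the expression minimum, and the 3 expressed miRNAs nearest in pattern to miR-150-5p and miR-223-3p. The ratios other than miR-223-3p to miR-150-5p were chosen after the values were seen.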

Additional observations from a re-analysis of the deposited data

Results flagged for a closer look

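Among 40 groups of values examined (8 miRNAs and 12 ratios in 2 groups each), 1 held a library far from the others, where chance flags about 1 in 20 groups. It was miR-150-5p in C3, at 426 CPM against 513 to 514 CPM in the other 3 control mice. C3 is the control mouse nearest to the LLC group, and the log2-fold change without it was -0.45.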

How the results depend on the processing

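No expressed miRNA passed the adjusted threshold in edgeR's test, against 7 with DESeq2's Wald test and 22 of 932 without the expression minimum. Of the leukocyte miRNAs these were 0, 1 and 3. The study's own list of changed miRNAs, from the same mice and at the same thresholds, was longer than the 7 found here with DESeq2's Wald test. Why the lists differ was not tested. With 1 library left out in turn, 0 to 8 miRNAs were called (8 without L3, 1 without L1) and 0 to 1 of the leukocyte miRNAs (1 without L1). The groups have the numbers 1 to 3 in common, but for different mice. The deviations of these mice from the mean of their group correlated at -0.249 to -0.0899. This gave no sign that the numbers pair the mice, though 3 pairs are too few to exclude it. With the number as a replicate block, which compares only C1 to C3 with L1 to L3, 0 miRNAs were called. With library totals alone, 0 leukocyte miRNAs had groups that did not overlap, in either direction. The log2 ratio of miR-223-3p to miR-150-5p ranged from 0.96 to 1.16 over its alternatives, with a direction that groups without overlap fix. The order of levels cannot be tested in the 4 control libraries alone, where the smallest p is 0.125 and 0 of 9 pairs passed. Of the relations within groups, miR-223-3p with miR-142a-3p (r = 0.86) and miR-150-5p with miR-451a (r = 0.83) passed with library totals alone. Without the 2 farthest mice, miR-223-3p with miR-451a (r = 0.87) no longer passed (adjusted p = 0.278, exact permutation), and the r of miR-150-5p with miR-142a-3p (-0.31) and with miR-342-3p (0.069) changed sign. The cause of these shifts was not tested. Counts of 17 to 134 per library limit the miR-146 values.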
